A study of Homo sapiens with 3 samples.

Results

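The genes of glycolysis and of the hypoxia response were examined in THP-1 macrophages, a set of 36 genes out of 43317 gene names with a transcript probe on the arrays. A gene was taken by its name in the scanner files, and where 2 probes carried the name, the probe with the higher mean normalized intensity over the 3 arrays was used. All 36 genes were on the arrays, with 49 probes in all, and 35 were well above background on every array. THP-1 cells come from a human monocytic leukemia, and they were turned into macrophage-like cells with the phorbol ester PMA (100 ng/ml for 24 to 36 h) and then left in fresh medium for a night. The 3 conditions that shared this differentiation were each measured at 4 h by 1 one-color array: untreated macrophages (Ctrl), macrophages given imiquimod, a ligand of toll-like receptor 7 (IMQ), and macrophages given DMD, a compound of the fungus Antrodia cinnamomea, before imiquimod (IMQ+DMD). The labels write the last treatment as IMQ+X, which was read as DMD because the series names no other compound, and they give no dose.

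There was 1 array for each condition, so no p-value and no spread between cultures can be given. Each difference is that of 2 single cultures, and a difference in culture cannot be told apart from one in treatment. It was set against the noise of repeated spots, which for most of these genes gave an SD of the log2 difference near 0.06, and for dim genes up to 0.42. A gene was counted as higher or lower at 2-fold or more, and the counts over the 36 genes are given beside the share of all genes that passed the same limit. In RNA from a whole culture, fewer cells of a kind and less RNA per cell cannot be told apart. All 8 macrophage markers on the arrays were well above background in the 3 conditions, with a median intensity of 14935 in Ctrl, 11980 with IMQ, and 10153 with IMQ+DMD. They did not share a direction. CD14 (22218, 13424, and 9461), CD163 (10999, 4696, and 5011), CSF1R, MSR1, and ITGAM were lower on both treated arrays. SPI1 (18140, 18435, and 19506) and FCGR2A (539, 652, and 682) were higher on both, and TYROBP hardly differed (229676, 227327, and 230400). The medians of the T cell, B cell, keratinocyte, erythroid, and fibroblast markers lay between 30.2 and 377, with TP63 and COL1A2 above background on no array, but the keratinocyte marker KRT10 (17519 to 18797) and the B cell marker CD79A (3413 to 4209) were bright on all of them. The part of these differences in the results was not tested.

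Glycolysis splits glucose into pyruvate, which is turned into lactate or enters the mitochondria. Hypoxia-inducible factors (HIF) are transcription factors whose alpha subunits, HIF1A and EPAS1, are degraded when oxygen is plentiful, and they drive many glycolytic genes. Macrophages that sense microbial ligands are known to raise glucose uptake and lactate output. Their HIF1A transcript can be raised by NF-kappaB without a fall in oxygen.

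In IMQ macrophages, VEGFA, both HIF alpha subunits, and some of the genes for glucose entry and its regulation were higher than in Ctrl, whereas other members of the same families were lower or differed by less than 2-fold. Of the 36 genes, 8 were at least 2-fold higher (22.2%, against 4.22% of the 31872 genes compared), and they were VEGFA, EPAS1, HIF1A, SLC2A6, PFKFB3, HK2, SLC2A3, and PFKFB4. Another 4 were at least 2-fold lower (11.1%, against 3.61%), and they were HK3, PFKP, PDK4, and SLC16A1. The median log2 difference of the 36 genes was -0.08 and that of all genes -0.02. The limit ran close to several genes: PFKFB4 (1.07) lay just inside and ADM (0.90) just outside on the higher side, and SLC16A1 (-1.04) just inside and PDK2 (-0.99) just outside on the lower side.

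**Figure D1:**
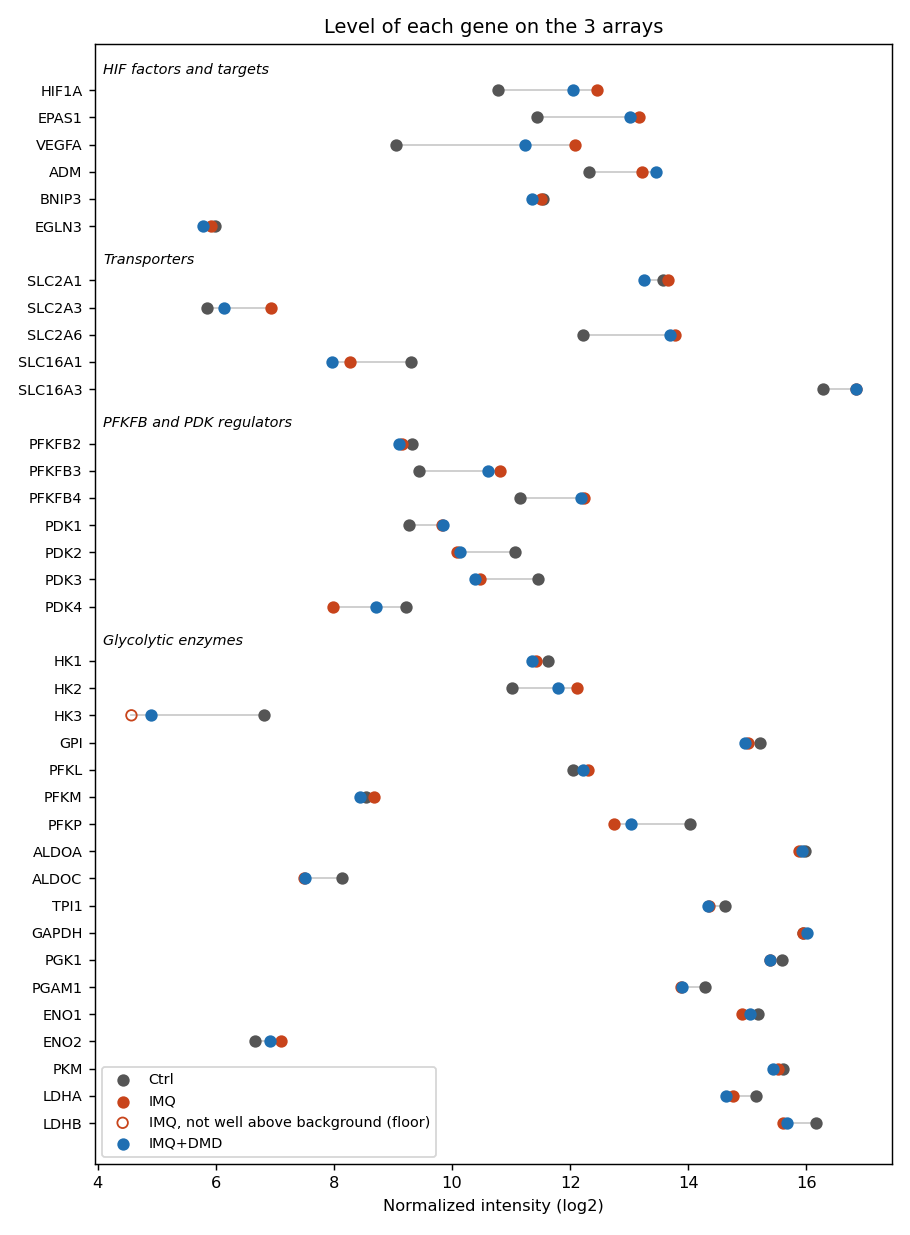
Normalized intensity (log2, x axis) of the 36 genes (y axis, by role) on the Ctrl, IMQ, and IMQ+DMD arrays, 1 point for each array. The open circle of HK3 is a value at the floor of the IMQ array, and for VEGFA, HIF1A, and EPAS1 both treated arrays lie to the right of Ctrl.

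VEGFA, the growth factor of blood vessels and a textbook HIF target, had the largest difference of the 36 genes. Its log2 intensity was 9.06 in Ctrl and reached 12.08 after IMQ, against 11.23 with DMD added. Both treated arrays were above Ctrl, and the array with DMD lay between the other 2. It was 8.09-fold higher than in Ctrl after IMQ and 4.50-fold higher with IMQ+DMD, and the difference between IMQ+DMD and IMQ was -0.85 (spot SD 0.06). A second probe gave 8.45, 10.95, and 9.98, hence a log2 difference of 2.50 between IMQ and Ctrl and one of -0.97 between IMQ+DMD and IMQ. The 60 bases of the first probe are spread over 412 bases at chr6:43746223-43746634 (hg19), across a splice junction, and its sequence is shown because the largest difference rests on it.
VEGFA probe: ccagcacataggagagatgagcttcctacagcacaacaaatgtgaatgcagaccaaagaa

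HIF1A, the alpha subunit of HIF-1, was read by a probe with 10 spots. The Ctrl, IMQ, and IMQ+DMD arrays read 10.77, 12.46, and 12.05 on the log2 scale. The log2 difference was 1.69 between IMQ and Ctrl and -0.41 between IMQ+DMD and IMQ, with a spot SD of 0.02 for each. The second HIF1A probe gave 1.63 and -0.54. EPAS1, the alpha subunit of HIF-2, had 11.43, 13.17, and 13.01 in the same order. It was 3.33-fold higher after IMQ than in Ctrl and 2.97-fold higher after IMQ+DMD, and the treated arrays differed by -0.16 on the log2 scale (spot SD 0.06). ADM, which encodes the vasodilator peptide adrenomedullin, went the other way between the treated arrays. The log2 level was 12.32 in Ctrl, then 13.21 after IMQ and 13.45 with DMD added, which is 1.86-fold and 2.20-fold over Ctrl. The side of the 2-fold limit turned with the scaling: the 75th percentile put IMQ at 1.02 as well, and without normalization IMQ+DMD stood at 0.66. BNIP3, a mitophagy receptor, and EGLN3, a HIF prolyl hydroxylase, are HIF targets as well. BNIP3 had 11.54, 11.50, and 11.36, and the dim EGLN3 had 5.99, 5.92, and 5.79, which is within its spot SD of 0.30. The 6 genes of this role were thus split, with 3 at least 2-fold higher after IMQ (against 4.22% of all genes) and a median of 1.29.

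Among 28 other HIF target genes, 26 could be compared between IMQ and Ctrl, and 5 of them were at least 2-fold higher (against 4.22% of all genes) and 0 lower (against 3.61%), with a median of 0.38. They were BHLHE40 (3.43), DDIT4 (2.63), ANGPTL4 (2.24), ANKRD37 (1.29), and HMOX1 (1.17). Between IMQ+DMD and IMQ, the log2 difference was -0.07 for BHLHE40, -0.94 for DDIT4, -0.90 for ANGPTL4, and -0.59 for ANKRD37, and it was 0.69 for HMOX1, a heme oxygenase that NRF2 also drives. Of 25 genes of this list compared between IMQ+DMD and IMQ, 1 was at least 2-fold lower (-1.62, against 1.25% of all genes). This was MIR210HG, the host transcript of a hypoxia microRNA. It was dim, with log2 values of 6.54 in Ctrl, 6.91 with IMQ, and 5.29 with IMQ+DMD. None of 11 HIF regulators differed by 2-fold in any of the 3 comparisons. The shares of all genes ran from 1.2% to 4.82% in a direction, so a count of 0 is near them.

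The transporters moved in both directions. SLC2A6, a glucose transporter of macrophages known as GLUT6, had log2 values of 12.22 in Ctrl, 13.78 with IMQ, and 13.69 with IMQ+DMD. Both treated arrays were well above Ctrl, by 2.95-fold and 2.76-fold, but the second SLC2A6 probe gave a log2 difference of only 0.75 for IMQ against Ctrl. SLC2A3, which encodes the glucose transporter GLUT3, was dim, with 5.85, 6.93, and 6.14. It was 2.11-fold higher after IMQ than in Ctrl and -0.78 on the log2 scale after IMQ+DMD against IMQ (spot SD 0.24), and its other probe was not well above background in Ctrl or after IMQ. SLC2A1, which encodes the common glucose transporter GLUT1, had 13.57, 13.67, and 13.25. SLC16A1, a lactate and pyruvate carrier, was lower on both treated arrays, with 9.30 in Ctrl, 8.27 with IMQ, and 7.97 with IMQ+DMD. SLC16A3, the lactate exporter of glycolytic cells, was higher on both, with 16.28, 16.84, and 16.84, a 1.48-fold difference over Ctrl each time. Its log2 difference between IMQ and Ctrl was 0.56 here and 0.19 with spike-in scaling.

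Families of regulatory enzymes steer the pathway. The PFKFB enzymes make fructose 2,6-bisphosphate, the activator of phosphofructokinase, and the PDK kinases shut off pyruvate dehydrogenase. PFKFB3 had log2 values of 9.45 in Ctrl, 10.81 with IMQ, and 10.62 with IMQ+DMD, which is 2.58-fold and 2.25-fold over Ctrl. Its second probe, spread over 2038 bases at chr10:6266166-6268203 (hg19), gave a log2 difference of 1.65 for IMQ against Ctrl. This probe was dim, with 4.54 in Ctrl, near the floor of 4.04, then 6.20 with IMQ and 6.14 with IMQ+DMD. Its sequence is shown as the second reading of this gene, from the same arrays.
PFKFB3 second probe: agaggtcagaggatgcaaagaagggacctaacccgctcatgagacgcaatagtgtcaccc

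PFKFB4 had 11.16, 12.23, and 12.18, whereas PFKFB2 had 9.33, 9.16, and 9.10. The PDK genes did not share a direction. PDK1, a HIF target, was 0.55 higher on the log2 scale after IMQ (9.28 in Ctrl, 9.83 with IMQ, and 9.85 with IMQ+DMD). With spike-in scaling the PDK1 difference between IMQ and Ctrl was 0.01. PDK2 had 11.07, 10.08, and 10.13, and PDK3 had 11.45, 10.48, and 10.38. The difference of PDK2 between IMQ and Ctrl was -0.99 by this probe but -0.15 by its second probe, the widest gap among the 11 genes with 2 probes that could be compared there. For PDK3 the probes gave -0.97 and -0.83. PDK4, the kinase raised by fasting, had 9.22 in Ctrl, 7.98 with IMQ, and 8.71 with IMQ+DMD. It was 2.36-fold lower after IMQ and, with DMD added, stood between the other arrays (0.73 above IMQ on the log2 scale, spot SD 0.11).

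**Figure D2:**
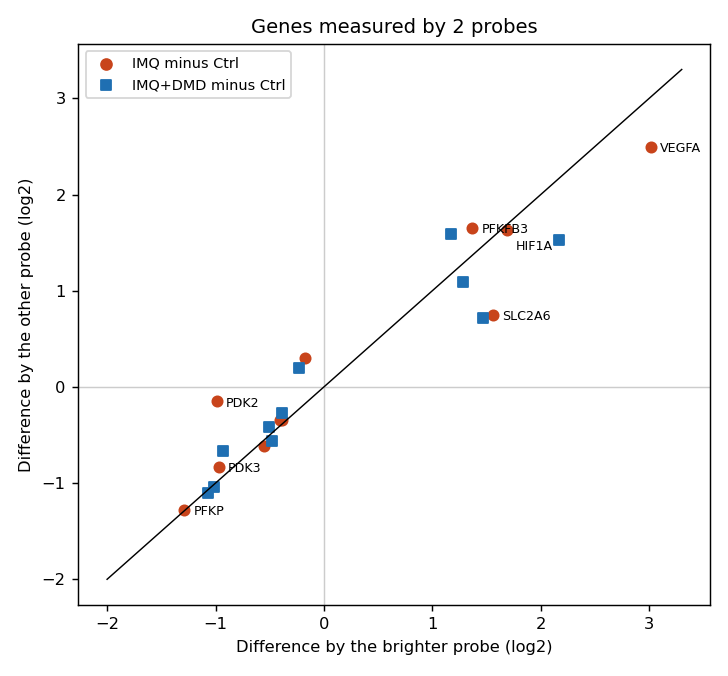
Log2 difference from Ctrl by the brighter probe (x axis) and by the other probe (y axis) of the genes with 2 probes, where both probes were well above background on both arrays. The line marks equal differences, and PDK2, SLC2A6, and VEGFA lie farthest from it for IMQ (circles).

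The hexokinases, which trap glucose in the cell, differed among themselves. HK2, the inducible form, had log2 values of 11.02 in Ctrl, 12.12 with IMQ, and 11.79 with IMQ+DMD, and it was 2.15-fold higher after IMQ than in Ctrl and 1.70-fold higher after IMQ+DMD. Its second probe was well above background only on the IMQ+DMD array, at a dim 5.45. By that probe IMQ+DMD was at least 0.88 above IMQ on the log2 scale, whereas the first probe gave -0.33. HK1, the housekeeping form, had 11.63, 11.43, and 11.35. HK3, a hexokinase of myeloid cells, had 6.82 in Ctrl and 4.91 after IMQ+DMD and was not well above background after IMQ. It was therefore at least 4.74-fold lower after IMQ than in Ctrl, against a floor of 4.57, and 3.75-fold lower after IMQ+DMD. With the normexp background correction its log2 differences were -1.10 and -0.94, so that the second no longer reached 2-fold. Its probe is spread over 229 bases at chr5:176310836-176311064 (hg19) and is shown because this is the only one of the 36 genes whose signal dropped to background.
HK3 probe: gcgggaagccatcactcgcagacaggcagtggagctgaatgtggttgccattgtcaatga

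Phosphofructokinase commits the sugar to glycolysis. PFKP, its platelet isoform, was lower on both treated arrays, with 14.03 in Ctrl, 12.75 with IMQ, and 13.02 with IMQ+DMD. This was 2.44-fold lower after IMQ and 2.01-fold lower after IMQ+DMD, and the second probe gave log2 differences of -1.27 and -1.04. PFKL (12.05, 12.29, and 12.22) and PFKM (8.54, 8.68, and 8.45) differed by less than 2-fold. The main isoforms of the other steps, GPI, ALDOA, TPI1, GAPDH, PGK1, PGAM1, ENO1, PKM, LDHA, and LDHB, had log2 differences from -0.56 to -0.00 between IMQ and Ctrl with a median of -0.24, and 0 of 10 reached 2-fold (against 4.22% and 3.61% of all genes). All 10 were below 0 in this normalization, but GAPDH was above 0 in the authors' values (0.03), and ALDOA, GAPDH, and PKM were above 0 with scaling to the 75th percentile. LDHB, which favors pyruvate, had the widest difference (16.16, 15.60, and 15.68), and GAPDH, by 10 spots, the smallest (15.94, 15.94, and 16.01). LDHA, which favors lactate, had 15.15, 14.76, and 14.65. The scanner files place this LDHA probe on chromosome 11. They place the second LDHA probe on chromosome 9, so LDHA may share signal with a related copy and is uncertain. By the probe used, the log2 differences from Ctrl were -0.39 after IMQ and -0.50 after IMQ+DMD. By the second probe they were -0.34 and -0.41. Of the brain isoforms, ALDOC had 8.13, 7.49, and 7.51. The dim ENO2 had 6.66, 7.11, and 6.92, and its difference between IMQ and Ctrl turned negative without normalization and with spike-in scaling.

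Genes next to this pathway were counted in the same way. Of 18 other glycolytic isoenzymes and branch enzymes compared, 0 were at least 2-fold higher after IMQ (against 4.22% of all genes) and 2 were lower (against 3.61%), the fructose carrier SLC2A5 (-1.10) and the lactate carrier SLC16A7 (-1.65). None of 8 pentose phosphate genes and none of 10 genes of pyruvate entry into mitochondria reached 2-fold between IMQ and Ctrl. The shares of all genes were 4.22% higher and 3.61% lower, so counts of 0 are near them. PGD, an NADPH-forming enzyme, had log2 values of 13.45 in Ctrl, 14.33 with IMQ, and 14.90 with IMQ+DMD, with log2 differences from Ctrl of 0.88 and 1.45.

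**Figure D3:**
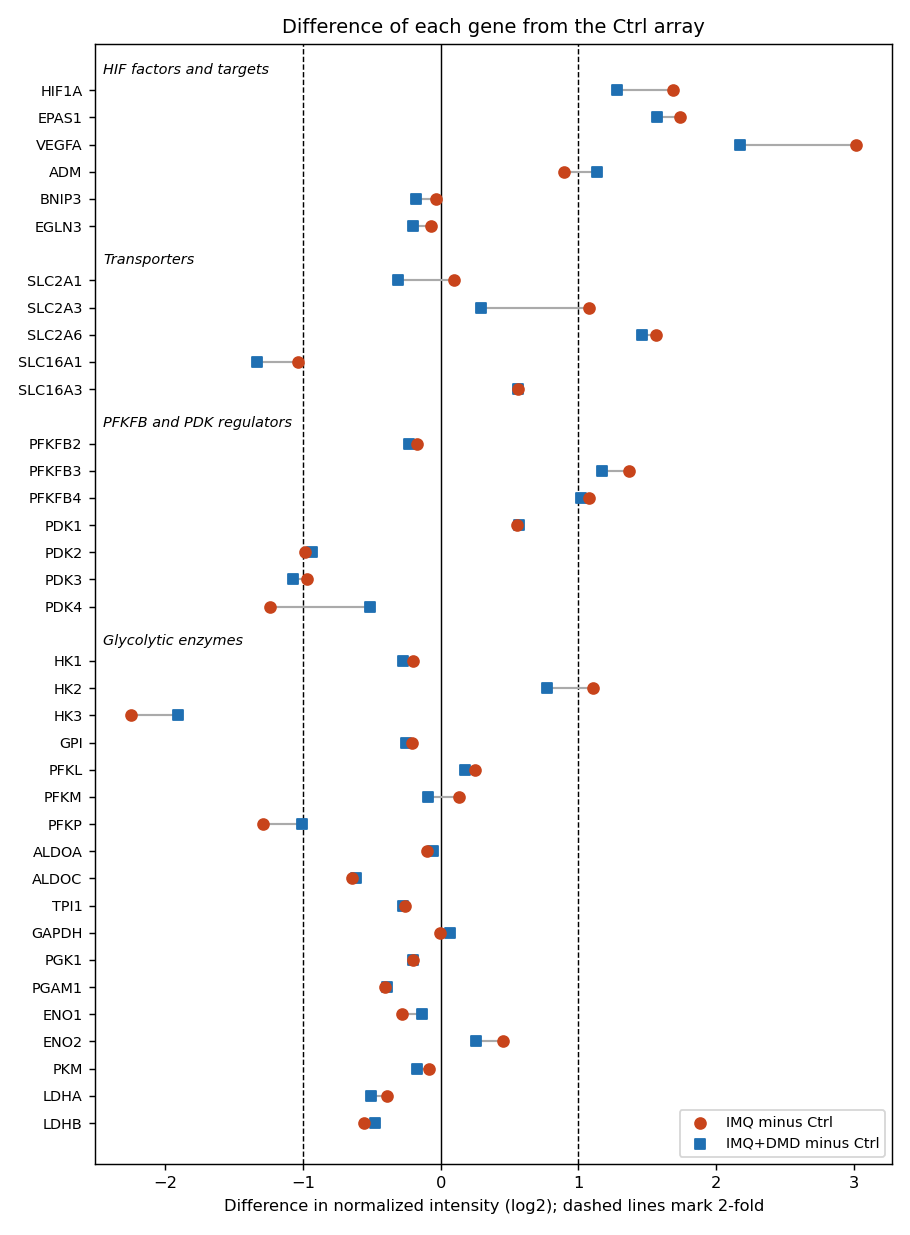
Log2 difference from the Ctrl array (x axis) of each gene (y axis) after IMQ (circles) and after IMQ+DMD (squares), with dashed lines at 2-fold. Both series share the Ctrl array. The pairs of SLC2A3, VEGFA, and PDK4 are the most widely separated.

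None of the 36 genes differed by 2-fold between IMQ+DMD and IMQ alone. The counts were 0 higher (against 1.2% of 31708 genes) and 0 lower (against 1.25%), with no replicates for a test. The differences ran from -0.85 (VEGFA) to 0.73 (PDK4), with a median of -0.07 against 0.01 for all genes. With a limit of 1.5-fold, PDK4 was higher (1 of 36, against 6.75% of all genes), and SLC2A3 and VEGFA were lower (2 of 36, against 5.43%). Between IMQ+DMD and Ctrl, 7 genes were at least 2-fold higher (19.4%, against 3.1% of 33713 genes), namely VEGFA, EPAS1, SLC2A6, HIF1A, PFKFB3, ADM, and PFKFB4. There were 4 lower (11.1%, against 4.82%), namely HK3, SLC16A1, PDK3, and PFKP. Without normalization and with spike-in scaling, HIF1A, PFKFB3, ADM, and PFKFB4 fell short of 2-fold here. Both counts rest on the same Ctrl array as those of IMQ against Ctrl.

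The log2 difference of IMQ+DMD from Ctrl was also taken in percent of that of IMQ from Ctrl. For the 8 genes higher after IMQ the median was 80.7%, from 27.4% for SLC2A3 to 95.1% for PFKFB4, and the median over all 1344 genes higher after IMQ was 77.2%. VEGFA stood at 71.9%, HIF1A at 75.9%, and EPAS1 at 90.5%. Of the 4 lower genes, PDK4 stood at 41.2%, PFKP at 78.5%, and SLC16A1 at 129%, and HK3, at the floor after IMQ, at no more than 84.9%. Their median was at most 81.7%, and the median over all 1152 genes lower after IMQ was 108%. The Ctrl array is in both parts of this ratio, and the genes were taken for their value on the IMQ array, so it is a description.

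**Figure D4:**
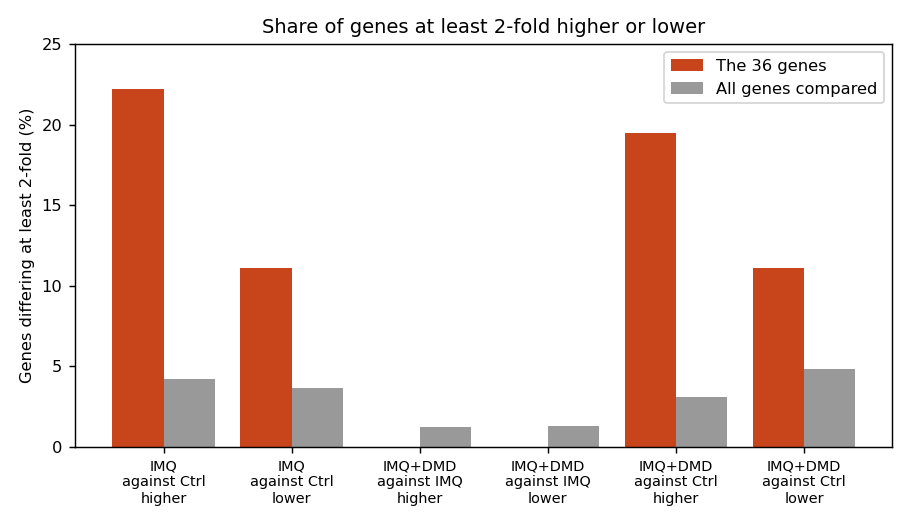
Percent of genes (y axis) at least 2-fold higher or lower in each comparison (x axis), for the 36 genes and for all genes compared. The bars of the 36 genes are 22.2% and 11.1% between IMQ and Ctrl, and both are 0 between IMQ+DMD and IMQ.

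Promoter windows of 300 bases, 250 before to 50 after a transcript start, came from RefSeq (GRCh38.p14) for 32 of the 36 genes, with 61 windows, and not for SLC2A3, SLC16A1, PFKFB2, and VEGFA. They were searched on both strands for ACGTG and GCGTG, the cores of many HIF binding sites. ACGTG also lies inside the E-box CACGTG and is then found on both strands. ACGTG was in 21 of the 61 windows (34.4%) and in 21.4% of all 35116 windows, and either form was in 38 (62.3%) and in 48.4% of all. By gene, ACGTG was in a window of 2 of the 6 matched genes that were higher after IMQ, 1 of the 3 lower ones, and 14 of the 23 others. Either form was in 6 of 6, 1 of 3, and 21 of 23, and genes with several windows have more chances to hold one. The stretches below, 5′ to 3′ and all before the start, show ACGTG (in capitals, on either strand) in genes with different readings: HK2 and PFKFB3 were higher after IMQ, PFKP was lower, and PGK1, LDHA, and GAPDH differed by less than 2-fold. A match in these letters is not a binding site.
HK2, chr2:74834936-74835066, + strand: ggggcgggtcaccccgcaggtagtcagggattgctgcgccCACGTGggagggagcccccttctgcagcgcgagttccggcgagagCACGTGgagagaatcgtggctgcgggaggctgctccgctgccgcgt
PFKFB3, chr10:6202784-6202869, + strand: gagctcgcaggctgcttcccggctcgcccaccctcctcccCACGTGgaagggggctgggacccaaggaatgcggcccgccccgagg
PFKP, chr10:3069010-3069094, + strand: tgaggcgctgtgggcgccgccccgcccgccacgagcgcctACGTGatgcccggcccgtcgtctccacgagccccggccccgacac
PGK1, chrX:78104006-78104109, + strand: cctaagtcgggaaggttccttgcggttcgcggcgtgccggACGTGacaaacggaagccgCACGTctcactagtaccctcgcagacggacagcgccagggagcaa
LDHA, chr11:18394338-18394534, + strand: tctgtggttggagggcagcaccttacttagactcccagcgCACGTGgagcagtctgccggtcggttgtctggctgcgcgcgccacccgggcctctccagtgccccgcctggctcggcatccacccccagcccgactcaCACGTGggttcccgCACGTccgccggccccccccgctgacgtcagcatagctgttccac
GAPDH, chr12:6535143-6535228, + strand: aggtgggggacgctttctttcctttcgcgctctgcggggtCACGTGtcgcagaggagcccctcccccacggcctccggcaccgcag

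The scale of the arrays bears on the counts. The processed intensity of the IMQ array was lower as a whole, with a median of 61.8 against 94.5 in Ctrl and 76.4 after IMQ+DMD, and without normalization the median of all genes was -0.51 for IMQ against Ctrl. Between IMQ and Ctrl, VEGFA, HIF1A, EPAS1, and SLC2A6 were at least 2-fold higher, and HK3, PFKP, and PDK4 at least 2-fold lower, under 5 settings. These were quantile normalization, the 75th percentile, no normalization, spike-in scaling, and normexp. HK2, SLC2A3, PFKFB3, PFKFB4, and SLC16A1 fell short of 2-fold in at least 1 of them, and ADM (75th percentile) and ALDOC, PDK2, and PDK3 (no normalization and spike-in scaling) passed it. Of all genes, 15.7% without normalization and 21.7% with spike-in scaling were at least 2-fold lower. A lower call under those 2 settings therefore says little about a single gene.

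**Figure D5:**
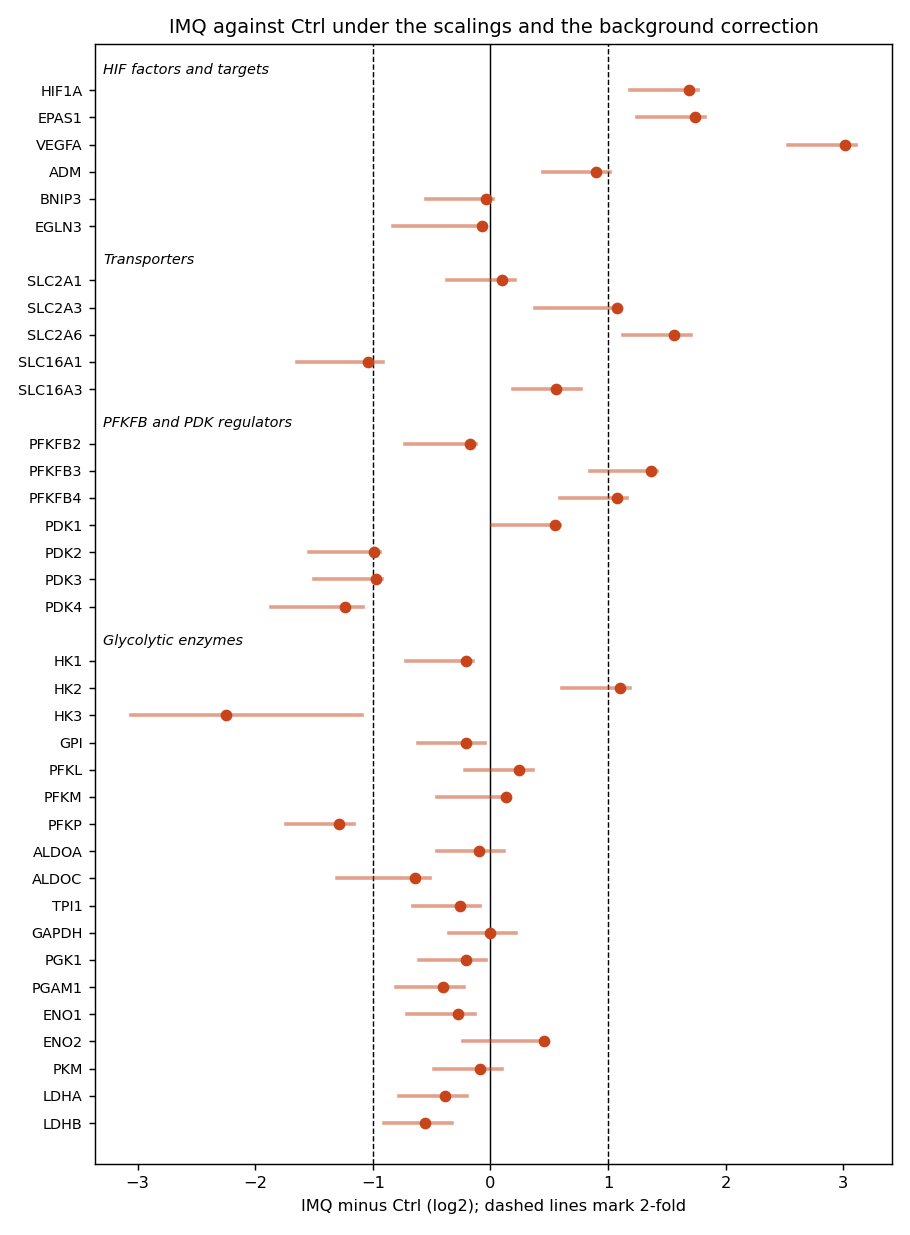
Log2 difference between IMQ and Ctrl (x axis) of each gene (y axis) with quantile normalization (points) and its range over that, the 75th percentile, no normalization, spike-in scaling, and normexp (bars), with dashed lines at 2-fold. The bar of VEGFA runs from 2.53 to 3.11.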

How the data were processed

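RNA of 3 THP-1 cultures was measured on 3 one-color arrays of 1 slide. The authors deposited the scanner output of Feature Extraction 10.5.1.1, whose processed intensity is background corrected, and a table of raw and quantile-normalized intensity. The annotation of the scanner files is hg19. Control spots and outlier-marked spots (52 to 82 an array) were left out, and the processed intensity was quantile normalized over spots with limma 3.58.1 in R 4.3.3, taken as log2, and averaged for each probe over its spots. The authors' values are all but met when spots are averaged first. Both orders were run with the calls known, and for a time the second served as the main one; normalizing over spots was kept because it was the order first used, and PDK2 and PFKP depend on it.

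A probe not well above background got the higher of its value and the lowest value of a probe that was (log2 4.04, 4.57, and 4.08 on Ctrl, IMQ, and IMQ+DMD). Genes were compared if well above background on the brighter array. Spot noise came from 300 probes with 10 spots. The number of arrays limits the precision. Quantile normalization was run on simulated arrays with equal numbers of probes raised and lowered. That setting cannot check it for a shift of most genes in 1 direction. The genes, lists, and markers were chosen with earlier results of these data known. Named genes were all 36, and of the other lists those past 2-fold, each also given for IMQ+DMD against IMQ in the list of HIF targets. Alternatives were the 75th percentile, no normalization, 10 spike-in probes, normexp (offset 50), the authors' values, outlier spots kept, other filters, other probe choices, and a limit of 1.5-fold.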

Additional observations from a re-analysis of the deposited data

How the results depend on the processing

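With 1 array for each condition, there was no replicate to leave out. No paired analysis was possible because each condition has 1 sample and no test. Of the differences of single genes recomputed under the alternatives, 379 of 395 kept their direction for IMQ against Ctrl. The counts were 365 of 395 for IMQ+DMD against IMQ and 386 of 396 for IMQ+DMD against Ctrl. Several alternatives, such as keeping outlier spots, hardly change the values, so these counts are no measure of stability. Between IMQ+DMD and IMQ, ALDOA, TPI1, GAPDH, PGK1, PGAM1, ENO2, LDHB, SLC16A3, PFKFB2, PDK1, PDK2, and EGLN3 changed direction with at least 1 scaling. Among the 2-fold differences, 0 changed sign, but no gene was 2-fold different between IMQ+DMD and IMQ.

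For IMQ against Ctrl, no normalization and spike-in scaling each gave 4 genes higher (against 1.77% and 1.48% of all genes) and 7 lower (19.4%, against 15.7% and 21.7%, so near the share of all genes), with medians of -0.39 and -0.52, where the medians of all genes were -0.51 and -0.64. The 75th percentile turned the median of the 36 genes to 0.0598, and a limit of 1.5-fold gave 7 lower (against 10.7%). For IMQ+DMD against IMQ, the 75th percentile gave 1 lower gene (VEGFA, against 0.60% of all genes) and a median of -0.18, no normalization a median of -0.16, and 1.5-fold 1 higher and 2 lower. For IMQ+DMD against Ctrl, no normalization and spike-in scaling each gave 3 higher (VEGFA, EPAS1, and SLC2A6, against 1.54% and 1.61%). The medians there were -0.54 and -0.52, and normexp gave 2 lower (against 2.45%). The cause was not tested.

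Averaging spots before the normalization was an alternative added after the values were seen. It gave 5 lower genes for IMQ against Ctrl (with PDK2, 13.9%, against 3.62% of all genes). For IMQ+DMD against Ctrl it gave 3 (without PFKP, 8.33%, against 4.87%). The authors' values gave the same genes, against the same rounded shares of all genes. The calls of PDK2 and PFKP at 2-fold therefore depend on this choice. Taking the mean of all probes of a gene gave 6 higher genes for IMQ against Ctrl (16.7%, against 3.85% of all genes), without HK2 and SLC2A3. For IMQ+DMD against Ctrl it gave 8 higher (22.2%, against 2.67%), with HK2. The calls of HK2 and SLC2A3 thus depend on the probes used. HK3, SLC2A3, EGLN3, and ENO2 are dim, and their differences carry the largest spot noise.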
